A study of Mus musculus with 20 samples.

Results

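Saa3, Hp, Lcn2, Serpina3n and Steap4 are 5 genes of the acute-phase response, described here in stromal cells of mouse interscapular brown adipose tissue (iBAT). They were taken by symbol from the 31053 genes of the count tables. They were chosen by their measured levels in stromal cells, as genes seen to rise after cold or CL316,243 (CL). Steap4 did not do so in ASC1-like cells, one of the stromal classes, where every treated C57 library was below both room temperature libraries. Because of this choice the C57 values of all 5 genes in stromal classes are given below as a description, with no test. Tests are given for the Adrb1 line and the immune fraction, but the choice was made with earlier results of these data known, so these tests are not shown to be independent of it.

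The data were single-cell RNA-seq libraries of stromal vascular cells, made from 10 pools of iBAT of 3 to 4 mice each, aged 8 to 14 weeks. Each pool was split with magnetic beads against immune surface markers into a lineage-positive (Lin+) and a lineage-negative (Lin-) library, which gave 20 libraries. Male C57BL/6J mice stayed at room temperature (RT), spent 4 days at 6 °C (COLD), or received CL, a β3-adrenergic agonist, by infusion of 0.75 nmol per hour over 4 days, with 2 pools per group. Female mice of the Adrb1 line carried floxed alleles of the β1-adrenergic receptor gene, either without a Cre transgene (WT, Adrb1 fl/fl; Pdgfra-CreER -/-) or with the Cre allele (KO, Adrb1 fl/fl; Pdgfra-CreER +/-), and contributed 1 pool each at RT and after 4 days of cold. All mice of this line had received tamoxifen. The Cre is driven by Pdgfra, which stromal cells express and endothelial cells do not, so deletion was directed to Pdgfra-expressing cells. The RT libraries of the Adrb1 line were made with version 3 of the kit and all other libraries with version 2, so cold and kit version cannot be told apart in that line. Sex and line also differ together between the C57 and Adrb1 libraries.

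The acute-phase response is the change in secreted proteins that follows infection or injury. It is best known from the liver, but adipose tissue and other connective tissues make several of these proteins as well. Cytokines of the IL-6 family act on it through STAT3, while IL-1 and TNF act through NF-κB and the C/EBP factors. Saa3 encodes a serum amyloid A protein, an apolipoprotein that in mice is made mainly outside the liver. Hp encodes haptoglobin, which binds free haemoglobin and is made by hepatocytes and adipocytes and stored in neutrophil granules. Lcn2 encodes lipocalin-2, which withholds iron from bacteria by binding their siderophores. Serpina3n encodes a secreted inhibitor of serine proteases. Steap4 encodes a membrane metalloreductase that reduces iron and copper.

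The genes lie on different chromosomes. In the GRCm38 annotation Saa3 occupies chr7:46711998-46715700 on the minus strand, Hp chr8:109575128-109579172 on the minus strand and Lcn2 chr2:32384633-32388252 on the minus strand. Serpina3n lies at chr12:104406729-104414329 and Steap4 at chr5:7960457-7982213, both on the plus strand. All are protein-coding. Saa3 has close relatives in Saa1 and Saa2, and Serpina3n in the other Serpina3 genes, so reads that these copies share make their counts uncertain.

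Promoter sequences of 4 of the genes were taken from RefSeq (GRCm38.p6), since letters that the STAT, C/EBP and NF-κB factors prefer can be looked for in them. Hp had no entry in the promoter set used, so its promoter was not searched. Each line gives the 250 bases before the RefSeq start, 5′ to 3′ on the strand of the gene, with motif matches in capitals. The regions are chr7:46715677-46715926 (Saa3), chr2:32387740-32387989 (Lcn2), chr12:104406458-104406707 (Serpina3n) and chr5:7960222-7960471 (Steap4).
Saa3: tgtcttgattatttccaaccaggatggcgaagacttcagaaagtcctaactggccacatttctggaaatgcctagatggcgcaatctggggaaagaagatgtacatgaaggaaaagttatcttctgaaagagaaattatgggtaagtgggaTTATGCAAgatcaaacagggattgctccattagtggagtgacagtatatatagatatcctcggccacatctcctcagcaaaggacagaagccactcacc
Lcn2: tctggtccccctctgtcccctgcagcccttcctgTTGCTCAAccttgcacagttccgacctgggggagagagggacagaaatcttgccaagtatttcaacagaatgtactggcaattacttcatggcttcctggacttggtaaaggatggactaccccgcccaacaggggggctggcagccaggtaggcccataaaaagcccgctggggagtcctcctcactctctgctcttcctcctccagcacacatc
Serpina3n: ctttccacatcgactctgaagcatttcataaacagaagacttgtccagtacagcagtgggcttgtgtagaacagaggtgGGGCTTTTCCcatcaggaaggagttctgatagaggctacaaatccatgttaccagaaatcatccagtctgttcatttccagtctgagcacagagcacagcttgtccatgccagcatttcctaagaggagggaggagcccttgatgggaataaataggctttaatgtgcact
Steap4: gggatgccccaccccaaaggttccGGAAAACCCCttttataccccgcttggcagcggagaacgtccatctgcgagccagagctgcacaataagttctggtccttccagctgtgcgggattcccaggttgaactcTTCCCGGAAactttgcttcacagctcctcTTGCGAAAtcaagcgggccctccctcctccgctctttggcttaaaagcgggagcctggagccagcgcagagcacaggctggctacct
The letters searched on both strands were TTCNNNGAA for STAT, TTGCNNAA for C/EBP and GGG, any 2 bases and TTTCC for NF-κB. Counted back from the start, the Saa3 promoter held a C/EBP match at -99 to -92 and the Lcn2 promoter one at -216 to -209. The Serpina3n promoter held an NF-κB match at -171 to -162. The Steap4 promoter held a match of each kind, for STAT at -116 to -108, for C/EBP at -87 to -80 and for NF-κB at -226 to -217. No 2 of these matches overlapped. Of 32851 promoters of this length, 7.02% held the STAT letters, 9.56% the C/EBP letters and 1.41% the NF-κB letters. These are matches of letters and not measured binding sites.

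Filtering kept 66339 of 89637 Lin- and 59935 of 67122 Lin+ barcodes. Lin- libraries held 7.86e+06 to 3.13e+07 UMIs and Lin+ libraries 9.39e+06 to 4.20e+07 UMIs. Cells were clustered without the genes described here, and clusters were named from marker genes, with the suffix -like. Adipose stromal cells (ASCs) were named in 3 classes, marked by Bmper, Cxcl14 and Smoc2 (ASC1-like), Pi16 (ASC2-like) and Gdf10 (ASC3-like). Other clusters with stromal markers stayed unnamed and are not in these classes. Among them were clusters led by mitochondrial genes (1928 cells), by Cthrc1 and Lrrc15 (1837 cells) and by Cilp and Thbs4 (1378 cells). Levels of the 5 genes in these clusters are not given. ASC1-like cells came from 2 clusters. The first, held mostly by cold libraries, was led by the chemokine genes Cxcl10, Cxcl9 and Ccl2. The other was led by Smoc2, Cxcl14 and Hsd11b1. Levels are CPM, counts per 1000000 UMIs of a class in a library. The pools of a group are the replicates, and their number limits the precision of all values. Statements that groups did not overlap, or lay above each other, are descriptions. The share of all genes for which this held was not counted. Intervals on a sum of UMIs cover counting error only.

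The targeted gene went with the genotype labels. Adrb1 was counted with 11 UMIs (6.42 CPM) in ASC1-like cells of the WT RT library and 49 (4.03 CPM) of the WT COLD library. In the KO libraries it was counted with 0 UMIs at RT and 4 (0.521 CPM) after cold. In VSMC-like cells, where Pdgfra stood at 8.44 to 49.6 CPM against 158 to 801 CPM in ASC1-like cells, Adrb1 was 55.1 and 67.5 CPM in WT and 81.6 and 83.1 CPM in KO. These counts are low, and the part of the gene that was deleted is not given in the sources used here.

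One C57 CL experiment had to be read with care. In CL replicate 2, 1098 cell barcodes (17.1% of its Lin- cells) were shared between its Lin- and Lin+ libraries, against 2 to 126 in the other experiments. Of these, 1082 had more UMIs in the Lin- library. The CL replicates also differed widely in the levels of the genes described here, as given below. The levels of the 5 genes in the ASC classes of CL replicate 2 are therefore also given without the shared barcodes, while its shares of cells include them.

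Saa3 was at 0 to 14.2 CPM in ASC1-like cells at RT and stood above 500 CPM in those of all 4 COLD libraries. The ASC1-like values of C57 mice were 14.2 and 0 CPM at RT, 718 and 742 CPM after cold, and 1230 and 42.7 CPM after CL. The RT value of 14.2 CPM came from 10 of 1298 cells, of which the highest held 36.7% of the Saa3 UMIs. The COLD libraries were close to each other and far above RT. The CL libraries were far apart, and the lower one stood at 17.7 CPM without its shared barcodes. The log2 fold change (2 against 2 libraries) was 6.35 for cold and 6.08 for CL, and the CL value was 2.44 without CL replicate 1.

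The other ASC classes held less Saa3 after cold. ASC2-like cells had 0.252 and 0.523 CPM of Saa3 at RT, 95.7 and 110 CPM after cold and 66.3 and 23.3 CPM after CL. ASC3-like cells had 5.37 and 1.19 CPM at RT, 186 and 145 CPM after cold, and 2994 and 578 CPM after CL. In both CL libraries the ASC3-like level was above the ASC1-like level, while in both COLD libraries it was below. Without the shared barcodes the ASC3-like level of CL replicate 2 was 367 CPM, and the ASC2-like level stayed at 23.3 CPM. The log2 fold changes were 8.07 for cold and 6.84 for CL in ASC2-like cells. The ASC3-like values were 5.26 and 8.77, and the latter was 8.67 without the shared barcodes and 7.32 without CL replicate 1.

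**Figure D1:**
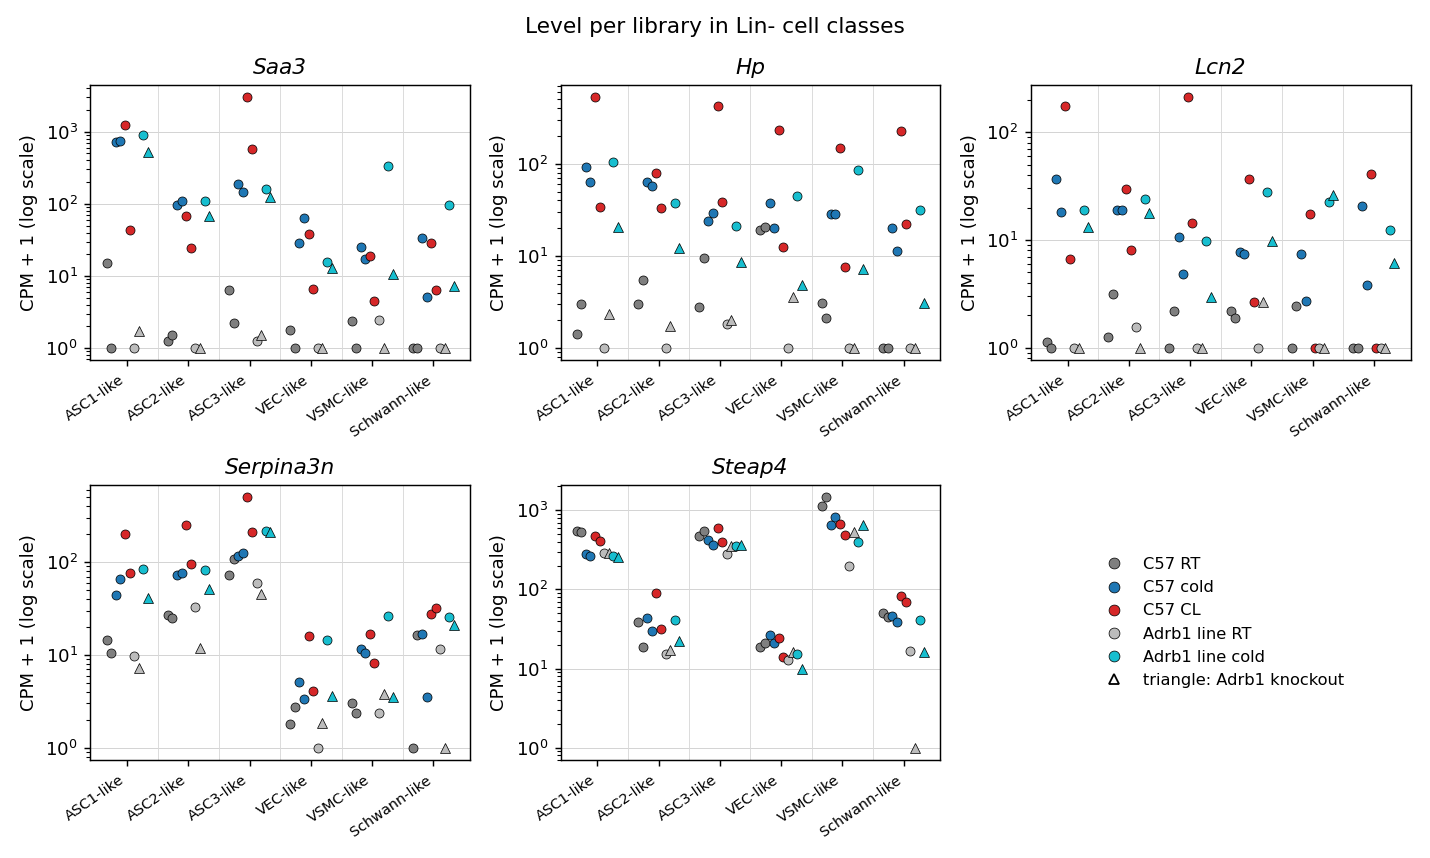
Levels of Saa3, Hp, Lcn2, Serpina3n and Steap4 in CPM + 1 (log scale) in each Lin- class, 1 point per library, colored by treatment and line, with triangles for the Adrb1 knockout. Saa3 in ASC1-like cells sits at 718 and 742 CPM in the C57 COLD libraries against 14.2 and 0 CPM at RT, whereas Steap4 is already above 280 CPM in ASC1-like cells at RT.

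Within ASC1-like cells the level of Saa3 differed between the clusters. The cluster led by Cxcl10 had 847 and 815 CPM of Saa3 in C57 mice after cold, 2036 and 132 CPM after CL and 1135 and 666 CPM in the WT and KO COLD libraries. The other ASC1-like cluster had 279 and 374, 288 and 10, and 228 and 139 CPM in the same libraries. The first was higher in 6 of 6 libraries, and Saa3 itself was among its leading genes. Prolif-like cells also carried Saa3 after treatment, at 596 and 692 CPM after cold and 412 and 80.1 CPM after CL. The C57 RT libraries held 10 and 2 such cells, too few for a level.

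A minority of cells carried most Saa3. A UMI of Saa3 was counted in 662 of 2952 ASC1-like cells of COLD replicate 1 and in 401 of 2400 of COLD replicate 2. It was counted in 152 of 1131 and 46 of 1228 in the CL libraries, in 351 of 1630 in WT COLD and in 135 of 936 in KO COLD. Cells with at least 10 UMIs numbered 194, 202, 49, 6, 198 and 73 in the same order. These cells held 81.2%, 92.9%, 90.8%, 59.2%, 94.1% and 95.03% of the Saa3 UMIs of their class. The highest single ASC1-like cell held 473 UMIs.

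Single cells weighed more in the Saa3 level of ASC3-like cells. The highest ASC3-like cell held 24.96% and 70.5% of the Saa3 UMIs of its class in the COLD replicates, 7.34% and 22.9% in the CL replicates, 21.2% in WT COLD and 35.1% in KO COLD. In ASC1-like cells the highest cell held 2.59% and 4.54%, 5.32% and 19.8%, 2.84% and 8.04% in the same order. The ASC3-like value was the higher one in 6 of 6 libraries, by little in the CL replicates. The ASC3-like sums of the 4 COLD libraries were also small, at 243 to 507 UMIs of Saa3. The ASC1-like sum of CL replicate 2 was 230 UMIs, so it rested on few cells as well.

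**Figure D2:**
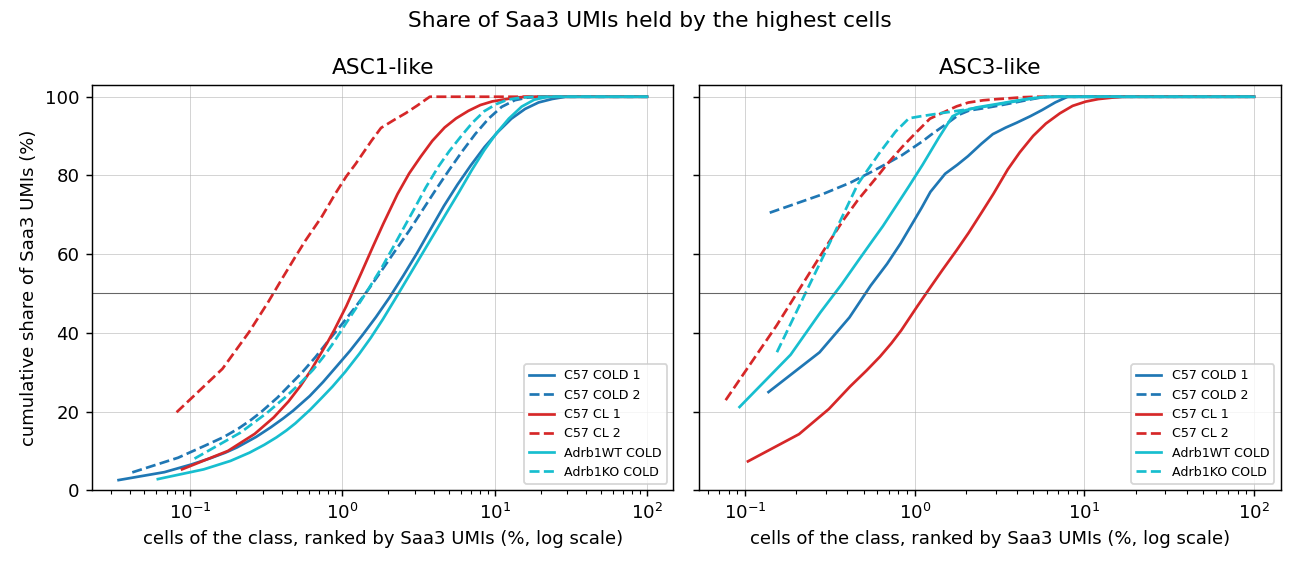
Cumulative share of Saa3 UMIs (%) against the share of cells (%, log scale), with the cells of a class ranked by their Saa3 UMIs, for ASC1-like and ASC3-like cells of the 6 treated libraries. The curves of the ASC1-like COLD libraries start at 2.59% to 8.04% for the highest cell and those of its CL replicates at 5.32% and 19.8%, whereas that of ASC3-like cells of C57 COLD replicate 2 starts at 70.5%.

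In ASC1-like cells with Saa3 other members were counted in a larger share of cells. In ASC1-like cells Hp was counted in 20.7% and 28.7% of cells with Saa3 and in 11.2% and 9.41% of cells without it in the COLD replicates. The shares for Hp were 36.8% against 6.84% and 28.3% against 3.81% in the CL replicates, 22.8% against 8.37% in WT COLD and 14.1% against 7.62% in KO COLD. Lcn2 was counted in 15.2% to 35.5% of cells with Saa3 and in 0.931% to 4.63% of cells without it, and Serpina3n in 19.8% to 60.9% against 10.9% to 23.7%. The order was the same in 6 of 6 libraries for each of these genes. Steap4, which was not higher in treated C57 libraries of this class, had the same order in 6 of 6 as well. It was counted in 63.6% to 91.3% of cells with Saa3 and 53.1% to 77.1% of cells without it. In ASC2-like cells of COLD replicate 2 the order for Hp was the reverse, at 2.86% (1 of 35 cells) against 7.55%. Cells with Saa3 had 1.11 to 1.34 times as many UMIs in all, and the part of that depth in the shares was not tested.

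In the Adrb1 line, cold and RT were compared with edgeR's quasi-likelihood test on the summed counts, with WT and KO as the 2 libraries of each group and p-values adjusted by Benjamini-Hochberg over all genes. All 5 genes passed the filter on low counts in ASC1-like, ASC2-like and ASC3-like cells. Saa3, Hp and Lcn2 did so only through treated libraries, so neither their count nor their calls are support by themselves. In ASC1-like cells 3 of the 5 were higher after cold at an adjusted p under 0.05, where 20.4% of all genes tested were. The numbers were 4 of 5 in ASC2-like cells, with a background of 18.4%, and 2 of 5 in ASC3-like cells, with a background of 13.9%.

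Saa3 was called higher after cold in all 3 ASC classes of the Adrb1 line, in calls that are no support by themselves. In ASC1-like cells its level was 0 and 0.70 CPM in the WT and KO RT libraries and 890 and 521 CPM in the WT and KO COLD libraries. The RT sum was 1 UMI, which gives a ratio of 2348 with a counting interval of 421 to 92750. The fitted log2 fold change was 11.11 ± 2.14 (SE, edgeR, adjusted p = 0.00203). In ASC2-like cells, with 0 UMIs at RT and 109 and 67.6 CPM after cold, Saa3 was at least 93.2-fold higher (edgeR, adjusted p = 0.000193), taking 3 counts over the RT group as the floor. In ASC3-like cells the levels were 0.268 and 0.513 CPM at RT and 157 and 123 CPM after cold, a ratio of 405 with a counting interval of 112 to 3348 (edgeR, adjusted p = 0.000378). RT and COLD values did not overlap in any of these classes.

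Hp was called higher after cold in ASC1-like and ASC2-like cells of the Adrb1 line, again with no support from the calls by themselves. Its ASC1-like levels were 0 and 1.36 CPM at RT and 104 and 19.5 CPM after cold, with a log2 fold change of 6.65 ± 2.04 (edgeR, adjusted p = 0.0224). This call was lost without the WT RT, the WT COLD or the KO RT library, with log2 values of 5.57, 4.99 and 11.82. ASC1-like cells with at least 10 Hp UMIs numbered 34 of 1630 in WT COLD, with 68.7% of the Hp UMIs. In KO COLD they numbered 3 of 936, with 26.0%. In ASC2-like cells Hp was 0 and 0.710 CPM at RT and 36.2 and 11.2 CPM after cold, with a log2 fold change of 6.10 ± 1.16 (edgeR, adjusted p = 0.00221). In ASC3-like cells it was 0.802 and 0.997 CPM at RT and 20.1 and 7.56 CPM after cold, which did not pass (edgeR, log2 fold change 3.87 ± 1.63, adjusted p = 0.0944). With DESeq2 or with the genotype as a block, more members were called in ASC3-like cells, as given in the closing section. The summed level of 7 adipocyte check genes moved with cold in the same libraries, from 240 and 125 to 1888 and 1909 CPM in ASC1-like cells and from 38.3 and 16.96 to 98.9 and 52.4 CPM in ASC2-like cells. Most of the ASC1-like sum was Fabp4, at 229 and 95.9 CPM at RT and 1813 and 1853 CPM after cold. Endothelial (VEC-like) cells of the 10 libraries held 26485 to 67444 CPM of Fabp4. Fabp4 and Car3 of this list are also the genes on which the study set its correction for cell-free RNA, taking them as not expressed. The part of that choice in the adipocyte sums and in the cells counted below was not tested. Adipoq went from 0 and 0.700 to 13.6 and 6.39 CPM in ASC1-like cells. In ASC2-like cells Adipoq went from 0 and 0.738 to 17.4 and 7.04 CPM. Cells with a count of Adipoq, Car3, Cidec, Plin1 or Ucp1 numbered 10 and 13 at RT and 265 and 120 after cold in ASC1-like cells, and 2 and 5 against 146 and 59 in ASC2-like cells. Without these cells Hp passed in both classes (edgeR, log2 fold change 6.38 and adjusted p = 0.0243 in ASC1-like cells, adjusted p = 0.00122 in ASC2-like cells), with COLD levels of 90.4 and 15.4 CPM in ASC1-like and 34.0 and 11.3 CPM in ASC2-like cells. VEC-like cells held 8.80 and 0.885 Hp UMIs per 100 cells in WT COLD and KO COLD. The values were 77.5 and 16.0 in ASC1-like, 9.92 and 3.56 in ASC2-like, and 6.01 and 2.81 in ASC3-like cells. The part of cell-free RNA in the Hp values was not tested.

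Lcn2 passed the test after cold in ASC2-like cells of the Adrb1 line, again with no support from the call by itself. Its ASC2-like level was 0.569 and 0 CPM at RT and 23.1 and 16.8 CPM after cold, with a log2 fold change of 5.83 ± 1.07 (edgeR, adjusted p = 0.00184). In ASC1-like cells it was at 0 UMIs at RT and 18.0 and 12.3 CPM after cold, at least 16.5-fold higher, with an adjusted p of 0.113 (edgeR). In ASC3-like cells it was at 0 UMIs at RT and 8.84 and 1.97 CPM after cold, with an adjusted p of 0.183 (edgeR). The cold groups lay above the RT groups in all 3 classes. Both the ASC1-like and the ASC3-like Lcn2 values passed with DESeq2, at adjusted p = 0.00464 and 0.0360. With RT sums of 0 UMIs, these DESeq2 calls are no support by themselves either. Markers of luminal epithelial cells, which carry Lcn2, also differed between the ASC2-like sums: Krt8 was 1.14 and 4.43 CPM at RT and 12.4 and 7.39 CPM after cold, while Wfdc18 was 0 at RT and 6.49 and 7.04 CPM after cold, and Ltf 0 and 2.95 and 2.46 CPM. Krt18, Epcam and Wfdc2 of the same list were also higher there after cold. Krt19 went the other way, from 35.4 and 49.4 CPM at RT to 27.4 and 30.6 CPM after cold. In ASC2-like cells of the C57 libraries Krt19 stood at 20.7 to 46.7 CPM. The sum of 7 luminal markers in ASC2-like cells of the Adrb1 line, most of it Krt19 at RT, was 38.9 and 62.0 CPM at RT and 76.4 and 63.7 CPM after cold. In ASC3-like cells that sum was 5.90 and 9.75 CPM at RT and 50.8 and 22.3 CPM after cold, with Krt8 at 0 and 1.03 CPM and then 6.82 and 5.38 CPM, and in ASC1-like cells it was 7.59 and 12.6 CPM and then 12.2 and 7.56 CPM. Luminal-like cells numbered 20 and 72 at RT and 269 and 132 after cold, and their part in the Lcn2 values was not tested. VEC-like cells held 5.40 and 2.05 Lcn2 UMIs per 100 cells in WT COLD and KO COLD. The values were 6.34 and 5.34 in ASC2-like, 2.64 and 0.733 in ASC3-like, and 13.4 and 10.1 in ASC1-like cells. The part of cell-free RNA in the Lcn2 values was not tested.

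Serpina3n rose after cold in all 3 ASC classes of the Adrb1 line. It was 8.67 and 6.23 CPM in ASC1-like cells at RT and 83.2 and 39.9 CPM after cold, with a log2 fold change of 3.10 ± 0.61 (edgeR, adjusted p = 0.00225). In ASC2-like cells it was 31.7 and 10.98 CPM at RT and 82.0 and 50.9 CPM after cold, with a log2 fold change of 1.64 ± 0.48 (edgeR, adjusted p = 0.0195). This call was lost without the WT COLD library (1.28) or the KO RT library (1.09). In ASC3-like cells it was 58.7 and 44.2 CPM at RT and 214 and 212 CPM after cold, with a log2 fold change of 1.97 ± 0.30 (edgeR, adjusted p = 0.00106). The cold and RT libraries did not overlap in any of these classes, and the share of all genes without overlap was not counted.

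Steap4 did not pass the test in any Lin- class of the Adrb1 line. It was 289 and 286 CPM at RT and 260 and 256 CPM after cold in ASC1-like cells (edgeR, log2 fold change -0.08 ± 0.29, adjusted p = 0.858). The ASC3-like levels were 279 and 353 CPM at RT and 354 and 361 CPM after cold (edgeR, adjusted p = 0.773), and the ASC2-like levels 14.4 and 16.2 CPM at RT and 39.9 and 21.4 CPM after cold (edgeR, adjusted p = 0.182).

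**Figure D3:**
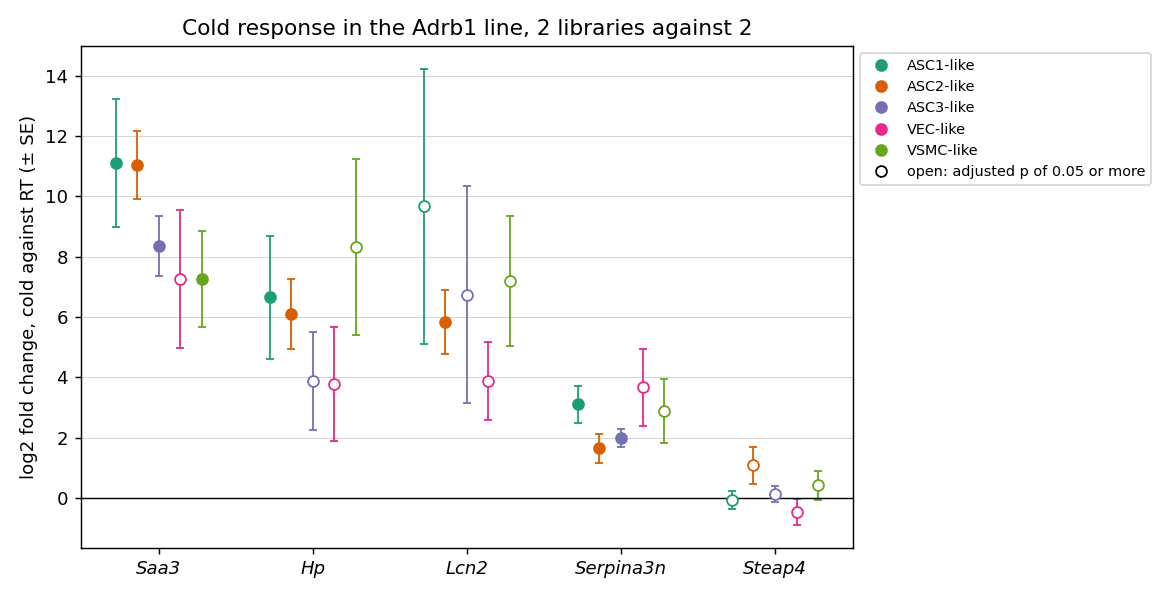
Log2 fold changes (points) with standard errors (bars) for cold against RT in the Adrb1 line, 2 libraries against 2, by gene and Lin- class, with filled points for an adjusted p under 0.05. Saa3 is filled in the 3 ASC classes and in VSMC-like cells, Serpina3n in the 3 ASC classes, and Steap4 in none.

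Serpina3n responded to cold by different amounts in the ASC1-like and ASC2-like classes of the Adrb1 line. The class by cold term, with the library as a block, was -1.42 ± 0.37 on the log2 scale for ASC2-like against ASC1-like cells (edgeR, adjusted p = 0.0223), where 8.28% of genes passed. It was no longer called without the WT RT library (-0.68) or without the WT COLD library (-1.22). The Serpina3n term was -1.11 ± 0.48 for ASC3-like cells (edgeR, adjusted p = 0.168, background 10.4%) and 0.62 ± 1.30 for VEC-like cells (edgeR, adjusted p = 0.841, background 6.13%). ASC1-like cells had the lowest Serpina3n level of the 3 ASC classes at RT in all 4 RT libraries of both lines. The terms of Saa3, Hp and Lcn2 did not pass, and with RT sums near 0 their standard errors were 1.28 or more on the log2 scale. The Steap4 term was 1.14 ± 0.47 for ASC2-like cells (edgeR, adjusted p = 0.161).

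WT and KO pools after cold were compared by value only, since each was 1 library. Saa3 in ASC1-like cells was 890 CPM in WT COLD (Poisson interval 874 to 907) and 521 CPM in KO COLD (505 to 538). Hp was 104 CPM (98.2 to 110) and 19.5 CPM (16.5 to 22.9), and Serpina3n 83.2 CPM (78.2 to 88.6) and 39.9 CPM (35.5 to 44.6). The KO COLD library was lower for each of these genes in ASC1-like cells. In ASC3-like cells Serpina3n was 214 CPM (199 to 231) in WT COLD and 212 CPM (194 to 231) in KO COLD, within counting error of each other. C57 replicates of one group also differed for Hp, at 91.5 and 63.1 CPM after cold, and the genotype difference has no replicate check.

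Hp in stromal cells of C57 mice was close to zero at RT and differed strongly between the CL replicates. ASC1-like cells had 0.427 and 2.02 CPM of Hp at RT, 91.5 and 63.1 CPM after cold and 525 and 32.9 CPM after CL. ASC2-like cells had 2.00 and 4.45, 62.8 and 56.1, and 79.1 and 32.0 CPM, and ASC3-like cells 1.77 and 8.53, 22.7 and 28.4, and 427 and 37.0 CPM. Treated libraries lay above RT libraries in all 3 classes. The log2 fold changes were 6.57 for cold and 8.34 for CL in ASC1-like cells, and the CL value was 5.55 without CL replicate 1. The CL levels of Hp rested on few cells. In ASC1-like cells 18 of 1131 cells held 74.0% of the Hp UMIs in CL replicate 1, and the highest cell alone held 24.4%, while 4 of 1228 held 52.6% in CL replicate 2. In the COLD replicates the highest ASC1-like cell held 2.69% and 6.93%, but in ASC3-like cells of COLD replicate 2 a single cell held 47.4%. Without its shared barcodes, CL replicate 2 had 11.2, 26.7 and 25.5 CPM of Hp in ASC1-like, ASC2-like and ASC3-like cells. VEC-like cells held 4.57 and 4.3 Hp UMIs per 100 cells in the COLD replicates and 20.2 and 2.54 in the CL replicates. ASC1-like cells held 34.5 and 36.9, and 104 and 14.5, in the same order. The values were 10.6 and 21.3, and 13.25 and 13.7, in ASC2-like cells. In ASC3-like cells they were 4.07 and 8.11, and 72.45 and 12.2. The part of cell-free RNA in these levels was not tested. Of the 5549 VEC-like cells of CL replicate 1, 2967 came from a cluster of low depth led by Cidea, Gpihbp1 and Cox8b.

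Hp moved together with markers of adipocytes in these libraries. Diff-like cells, a cluster led by Cfd, Scd1, Retn and Cidec with Hp itself among its top genes, had 13094 CPM of Hp in CL replicate 1 and 516 CPM in CL replicate 2, and 255 and 693 CPM in the COLD replicates. ProlifDiff-like cells, a cluster led by Car3, Adipoq and Fabp5, carried Hp as well. They held 2839 Hp UMIs in 1143 cells and 709 in 424 cells of the COLD replicates. The CL replicates had 895 in 537 and 184 in 73 such cells, WT COLD 1188 in 264 and KO COLD 47.0 in 99. The summed level of the 7 adipocyte check genes in ASC1-like cells was 50.6 and 24.7 CPM in the C57 RT libraries and 1439 to 2419 CPM in the treated C57 libraries, with no gene of the list at 0 in all libraries. Of this, Fabp4 made up 40.2 and 2.96 CPM at RT, 1705 and 1543 CPM after cold and 518 and 1235 CPM after CL. Adipoq was 0.144 and 1.98, 63.0 and 18.7, and 109 and 17.4 CPM in the same order. Leaving out cells with an adipocyte gene changed the ASC1-like Hp level from 91.5 to 55.2 CPM and from 63.1 to 47.9 CPM in the COLD libraries, and from 525 to 426 CPM in CL replicate 1. The ASC1-like level of Saa3 was 713 and 760 CPM in the COLD libraries without those cells.

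Lcn2 in C57 stromal cells followed Hp at lower counts. ASC1-like cells had 0.144 and 0 CPM of Lcn2 at RT, 36.1 and 17.1 CPM after cold and 174 and 5.68 CPM after CL. In ASC2-like cells the values were 0.252 and 2.15, 17.8 and 18.0, and 28.7 and 7.02 CPM, and in ASC3-like cells 0 and 1.20, 9.55 and 3.88, and 208 and 13.4 CPM. Without its shared barcodes, CL replicate 2 had 2.24, 5.62 and 5.72 CPM of Lcn2 in these classes. Treated and RT libraries did not overlap. With an RT sum of 1 UMI in ASC1-like cells, the cold ratio was 228 with a counting interval of 40.9 to 9036.

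Serpina3n was present in stromal cells at RT. Of the 3 ASC classes, ASC3-like cells had the highest level in all 10 libraries. In C57 RT libraries it was 13.7 and 9.47 CPM in ASC1-like, 25.7 and 24.1 CPM in ASC2-like and 71.7 and 108 CPM in ASC3-like cells. After cold the levels were 43.4 and 65.0, 71.3 and 75.2, and 116 and 126 CPM in these classes. After CL they were 198 and 75.4, 251 and 94.7, and 500 and 211 CPM. The CL libraries were higher than the COLD libraries in each class, but without the shared barcodes CL replicate 2 had 61.5, 79.0 and 205 CPM of Serpina3n, of which the ASC1-like value was below that of COLD replicate 2. The log2 fold changes for cold and CL were 2.20 and 3.50 in ASC1-like, 1.57 and 2.87 in ASC2-like, and 0.51 and 2.17 in ASC3-like cells.

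Steap4 had a pattern of its own. It was 551 and 525 CPM in ASC1-like cells of the C57 RT libraries, 282 and 260 CPM after cold and 475 and 410 CPM after CL, so both COLD libraries and both CL libraries were below RT. The pooled cold level was 0.494 of the RT level, and the log2 fold change was -0.88. The Steap4 level in ASC3-like cells was 476 and 552 CPM at RT, 420 and 366 CPM after cold and 589 and 392 CPM after CL. In ASC2-like cells it was 37.9 and 17.6, 43.1 and 28.6, and 89.1 and 31.0 CPM, with overlapping groups. In ASC1-like cells no treated C57 library was above an RT library. Without the shared barcodes Steap4 in CL replicate 2 was 423, 28.4 and 394.5 CPM in ASC1-like, ASC2-like and ASC3-like cells.

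To set these levels beside cell-free RNA, endothelial cells of the same libraries were used, which should lack stromal transcripts. Shares were compared after thinning each cell to 1000 UMIs, which left out cells with fewer. In the 6 treated libraries 12 to 61 ASC1-like cells and 68 to 4267 VEC-like cells were left out. Among the latter were 633 of 1274 in COLD replicate 1 and 4267 of 5549 in CL replicate 1, and 197 to 1282 VEC-like cells per library remained. Saa3 was counted in 15.3% and 11.4% of ASC1-like cells of the COLD replicates and in 2.81% and 1.10% of VEC-like cells. The share for Saa3 was 10.7% against 2.81% and 1.32% against 1.02% in the CL replicates, 15.8% against 1.06% in WT COLD and 9.15% against 0.472% in KO COLD. The ASC1-like share was above the VEC-like share in 6 of 6 libraries, but the VEC-like share was 2 of 197 cells in CL replicate 2 and 1 of 212 in KO COLD. In CL replicate 2 the exact binomial intervals of the Saa3 shares overlapped (0.754% to 2.13% and 0.123% to 3.62%). Without thinning, Saa3 was counted in 3.75% to 22.4% of ASC1-like and 1.51% to 3.14% of VEC-like cells. In ASC2-like cells the Saa3 shares were 3.85%, 2.47%, 2.79%, 0.725%, 1.80% and 2.49% in the same order, which in CL replicates 1 and 2 was at or below the endothelial share. Median depth before thinning was 1873 to 8514 UMIs in ASC1-like and 637 to 2058 UMIs in VEC-like cells of the treated libraries.

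Hp was also counted in endothelial cells. After thinning, Hp was counted in 5.08% and 3.68% of ASC1-like cells of the COLD replicates, 8.22% and 1.56% of the CL replicates, 4.08% of WT COLD and 2.40% of KO COLD. The VEC-like shares were 3.74% and 1.83%, 9.75% and 1.02%, 4.61% and 1.42%. The ASC1-like share of Hp was below the VEC-like share in CL replicate 1 and in WT COLD and above it in the other libraries. VEC-like cells had 17.9 and 19.6 CPM of Hp at C57 RT, above the ASC classes of the same libraries. In CL replicate 1 they had 233 CPM, of which 137 CPM was left without a VEC-like cluster of low depth. This cluster was led by Cidea, Gpihbp1, Cox8b and Kdr, with mt-Nd3 and mt-Nd1 also among its top genes. Of its 4044 cells, 2967 came from CL replicate 1. All other VEC-like levels, shares and counts per cell given here include this cluster. Whether its cells are all endothelial was not tested. VEC-like cells also held Adipoq, at 14.8 and 17.9 CPM at C57 RT, 85.3 and 23.6 CPM after cold and 157 and 10.3 CPM after CL. In ASC1-like cells Adipoq was 0.144 and 1.98, 63.0 and 18.7, and 109 and 17.4 CPM in the same order. In WT and KO COLD Adipoq was 26.5 and 7.39 CPM in VEC-like and 13.6 and 6.39 CPM in ASC1-like cells. The part of adipocyte RNA in the VEC-like Hp level was not tested.

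For Serpina3n the shares of cells with a UMI were higher in ASC1-like than in VEC-like cells in every treated library. It was counted in 4.14% to 14.95% of thinned ASC1-like cells and in 0 to 1.87% of VEC-like cells. The share of ASC1-like cells with Lcn2 was 2.52% and 1.52% in the COLD replicates and 4.95% and 0.329% in the CL replicates, against 0.468% and 0.366%, and 3.20% and 0, in VEC-like cells. In WT COLD the shares with Lcn2 were 1.57% and 1.77%, so the stromal share was not above the endothelial one, although VEC-like cells held 5.40 Lcn2 UMIs per 100 cells and ASC1-like cells 13.4.

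Counted per cell, the members did not keep 1 ratio between VEC-like and ASC1-like cells. The VEC-like cells counted here include the cluster of low depth led by Cidea, Gpihbp1 and Cox8b, which came mostly from CL replicate 1. In the 6 treated libraries VEC-like cells held 0.447% to 6.62% as many Saa3 UMIs per cell as ASC1-like cells, 0.980% to 3.04% as many Steap4 UMIs and 1.38% to 4.44% as many Serpina3n UMIs. For Hp the value was 5.54% to 19.4% and for Lcn2 6.18% to 40.2%. The stromal genes Pdgfra, Dcn, Lum, Col1a1 and Col1a2 gave 0.183% to 3.06%. Hp and Lcn2 were above the range of these 5 genes in each of the 6 libraries, and Saa3 was within or below it in 3 of 6. Serpina3n was above it in 4 of 6 and Steap4 in 3 of 6. Against ASC2-like cells the Hp value was 18.6% to 152.8%, the Lcn2 value 12.4% to 85.2% and the Saa3 value 9.95% to 33.8%. Those of the 5 stromal genes were 0.504% to 16.4%. Against ASC3-like cells the values were 20.8% to 146.6% for Hp, 8.40% to 279.2% for Lcn2 and 0.633% to 34.0% for Saa3. The 5 stromal genes gave 0.291% to 5.10% there.

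**Figure D4:**
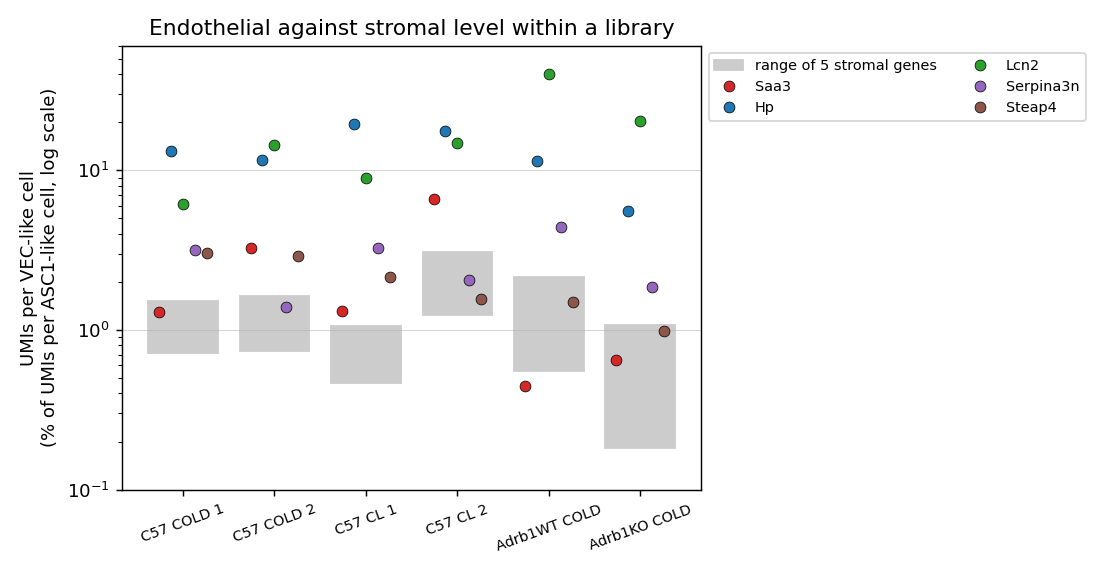
UMIs per VEC-like cell as a percentage of UMIs per ASC1-like cell (log scale) for each member in the 6 treated libraries, with a gray bar for the range of Pdgfra, Dcn, Lum, Col1a1 and Col1a2. Hp (5.54% to 19.4%) and Lcn2 (6.18% to 40.2%) lie above the bar in each library. VEC-like cells include the cluster of low depth led by Cidea, Gpihbp1 and Cox8b.

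VEC-like cells had no member called after cold in the Adrb1 line, where 6.46% of genes tested were higher (edgeR, 5 members tested, adjusted p from 0.0556 for Saa3 to 0.491 for Steap4). At an unadjusted p, 3194 genes of this class were under 0.05 and 1507 passed after adjustment. Saa3 was at 0 UMIs at RT and 14.7 and 12.0 CPM after cold in VEC-like cells, at least 8.79-fold higher. In VSMC-like cells, mural cells of vessels, Saa3 passed (edgeR, log2 fold change 7.26 ± 1.60, adjusted p = 0.0293, background 2.38%). That value rested on 1 cell, which held 220 of the 246 Saa3 UMIs of the WT COLD library. The KO COLD library had 9.50 CPM against 332 CPM in WT COLD, and the call was lost without the WT RT, WT COLD or KO RT library, at log2 values of 10.20, 3.11 and 6.70. In Schwann-like cells only Steap4 could be tested and it did not pass (edgeR, adjusted p = 0.277, background 5.25%).

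Steap4 was highest in 1 kind of mural cell. In VSMC-like cells Steap4 was 1135 and 1460 CPM at C57 RT, 651 and 826 CPM after cold, 674 and 493 CPM after CL, and 198 to 655 CPM in the Adrb1 libraries. Within this class, the cluster led by Kcnj8, Rgs5 and Higd1b had 899 to 2200 CPM of Steap4 and the cluster led by Myh11 and Acta2 41.6 to 290 CPM. The 2 clusters did not overlap in any of the 10 libraries. Steap4 was lower in VEC-like cells, at 8.95 to 25.7 CPM.

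Lcn2 was highest among Lin- cells outside the stroma. A cluster led by Ccl21a, Mmrn1, Lyve1 and Prox1, genes known from lymphatic vessels, had 399 to 3614 CPM of Lcn2 in the 10 libraries, RT included, from 8 to 52 cells each. The same cluster had 0 CPM of Serpina3n in all 4 RT libraries and 96.8 to 790 CPM in the 6 treated libraries. A cluster led by Wfdc18, Csn3 and Ltf had 2000 and 4338 CPM of Lcn2 in the WT and KO RT libraries and 5816 and 5146 CPM in the COLD libraries. Luminal-like epithelial cells, mostly from the female Adrb1 line, had 484 and 284 CPM at RT and 601 and 317 CPM after cold. These clusters hold few cells and their levels were not tested.

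In the immune fraction Hp and Lcn2 were highest in neutrophils, which store both proteins in their granules. NEUT-like cells had 1092 to 3872 CPM of Hp and 383 to 3582 CPM of Lcn2. MONO-like cells had 377 to 1195 CPM of Hp. MAC-like cells had 5.84 to 100 CPM and DEND-like cells 3.50 to 68.4 CPM of it. Serpina3n was at most 1.43 CPM in these classes in any library.

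After cold in the Adrb1 line, Hp and Lcn2 rose in NEUT-like cells. Hp was 2232 and 2160 CPM at RT and 2930 and 3872 CPM after cold (edgeR, log2 fold change 1.08 ± 0.35, adjusted p = 0.0180). Lcn2 was 1480 and 873 CPM at RT and 3331 and 3582 CPM after cold (edgeR, log2 fold change 1.99 ± 0.48, adjusted p = 0.00318). Steap4, the third gene tested, did not pass, and 42.2% of all genes were called in this contrast. In C57 NEUT-like cells no member passed, where 0.361% of genes were called after cold and 0.0515% after CL. Of 3880 genes there, 327 and 353 had an unadjusted p under 0.05. With the replicate number as a block 38 and 32 genes were called in these contrasts, and Steap4 was called after CL (edgeR, log2 fold change 2.51, adjusted p = 0.00699). The Hp call was lost without the WT RT, the KO RT or the KO COLD library.

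Hp in MONO-like cells passed the test in all 3 contrasts, with calls in C57 mice that did not hold under every alternative. It was 377 and 466 CPM at C57 RT, 764 and 731 CPM after cold (edgeR, log2 fold change 0.73 ± 0.19, adjusted p = 0.0465, background 3.26%) and 950 and 803 CPM after CL (edgeR, 0.97 ± 0.19, adjusted p = 0.0243, background 1.05%). In the Adrb1 line it was 587 and 418 CPM at RT and 1017 and 1195 CPM after cold (edgeR, 1.53 ± 0.19, adjusted p = 1.18e-05, background 54.6%). MONO-like cells came from 2 clusters. The larger, of 2796 cells, was led by Chil3 and Gm9733 with Hp itself among its top genes. The smaller, of 1698 cells, was led by Ace and Slc12a2. A change within cells and a change in the mix of these clusters were not tested apart. Treated and RT libraries did not overlap. The C57 cold call was lost with the replicate number as a block (edgeR, 0.73, adjusted p = 0.0510), in a fit of the C57 libraries alone (adjusted p = 0.112), without the cells with the highest doublet scores (adjusted p = 0.0648) and without any 1 of its 4 libraries. The CL call was lost in a fit of the C57 libraries alone (adjusted p = 0.0942) and without RT replicate 1. With the block 165 genes were called after CL in this class, against 90 without it.

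Saa3 was called in myeloid cells as well, where it passed the filter on low counts only through treated libraries, so these calls are no support by themselves. MONO-like cells had 0 and 3.70 CPM at C57 RT, 77.9 and 15.5 CPM after CL (edgeR, log2 fold change 4.44 ± 1.01, adjusted p = 0.0481), and 5.12 and 0 CPM at RT against 65.6 and 22.8 CPM after cold in the Adrb1 line (edgeR, 4.17 ± 0.84, adjusted p = 0.00066). MAC-like cells had 0 UMIs of Saa3 in all 4 RT libraries. After CL they had 104 and 12.4 CPM (edgeR, adjusted p = 0.0102, background 11.4%), where 3 counts over both RT libraries would be 0.616 CPM, and after cold in the Adrb1 line 18.4 and 9.12 CPM (edgeR, adjusted p = 0.0308, background 54.4%), where 3 counts would be 1.24 CPM. After cold in C57 mice Saa3 did not pass in either class, at 0.885 and 4.19 CPM in MAC-like cells (edgeR, adjusted p = 0.229) and 2.59 and 12.6 CPM in MONO-like cells (edgeR, log2 fold change 1.73 ± 1.55, adjusted p = 0.585). NEUT-like cells had 226 CPM of Saa3 in CL replicate 1, 2.85 CPM in CL replicate 2 and 7.28 CPM in WT COLD, and 0 UMIs in the other libraries, which was under the filter and not tested. The MAC-like CL call was lost without either RT library. The Adrb1 call was lost without the WT RT, WT COLD or KO RT library, and the MONO-like CL call without either RT library or CL replicate 1.

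The summed levels of Hp and Lcn2 over MAC-like cells of C57 mice fell after cold, while the clusters that make up this class also changed. Hp was 12.7 and 19.6 CPM at RT and 6.94 and 5.84 CPM after cold (edgeR, log2 fold change -1.28 ± 0.36, adjusted p = 0.0132, background 39.1%). Lcn2 was 3.58 and 6.03 CPM at RT and 0.497 and 0.674 CPM after cold (edgeR, -2.97 ± 0.68, adjusted p = 0.00439). The summed level of 6 neutrophil marker genes in the same MAC-like cells was 774 and 682 CPM at RT and 45.2 and 48.2 CPM after cold, and their part in these values was not tested. Of the 3 clusters of this class, the one led by Lilra5 and Mgl2 held most of the 740 and 728 cells at RT, and the one led by Gpnmb and Syngr1 held 1358 of 1496 and 1035 of 1093 cells after cold. Hp was 8.73 and 3.44 CPM in the first of these at RT and 7.07 and 5.52 CPM in the second after cold. In the remaining cluster, led by Cd209f and Ccl8, with 131 and 134 cells at RT and 89 and 44 after cold, Hp was 25.02 and 59.7 CPM at RT and 6.40 and 15.8 CPM after cold, and Lcn2 was 19.1 and 33.4 CPM at RT with 0 UMIs after cold. A change within cells and a change of clusters were not tested apart. Both calls were lost without RT replicate 2 (-0.92 for Hp and -2.54 for Lcn2) and without the cells with the highest doublet scores (-0.48 and -1.78). That of Hp was also lost without COLD replicate 2 (-1.18). In the Adrb1 line, where the neutrophil marker sum of MAC-like cells was 3443 and 1563 CPM at RT and 422 and 558 CPM after cold, Hp was called higher (edgeR, 0.90 ± 0.29, adjusted p = 0.0197), but its CPM overlapped between the groups (80.1 and 43.6 at RT, 71.0 and 100 after cold). The Gpnmb cluster held 49 of 200 and 69 of 232 MAC-like cells of this line at RT and 919 of 1217 and 228 of 353 after cold. That Hp call was lost without the KO RT or the KO COLD library.

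Lcn2 in MONO-like cells of the Adrb1 line was called higher after cold (edgeR, 0.88 ± 0.34, adjusted p = 0.0384), although its CPM overlapped, at 64.1 and 21.3 at RT and 62.5 and 68.0 after cold. The neutrophil marker sum of these cells was 3871 and 3368 CPM at RT and 723 and 540 CPM after cold, and its part in the value was not tested. This call was lost without the WT COLD, KO RT or KO COLD library and with DESeq2. In DEND-like cells neither of the 2 genes tested, Hp and Lcn2, passed in any contrast (edgeR, adjusted p of 0.0738 to 0.939), where 16.8% of genes were called after cold in C57 mice, 1.51% after CL and 54% after cold in the Adrb1 line. Unadjusted p-values under 0.05 numbered 3455, 1715 and 6196 of 10384 genes. With the replicate number as a block both genes were called lower after cold in C57 mice (edgeR, adjusted p = 0.042 for Hp and 0.0239 for Lcn2), and 238 genes were called after CL against 157 without it.

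**Figure D5:**
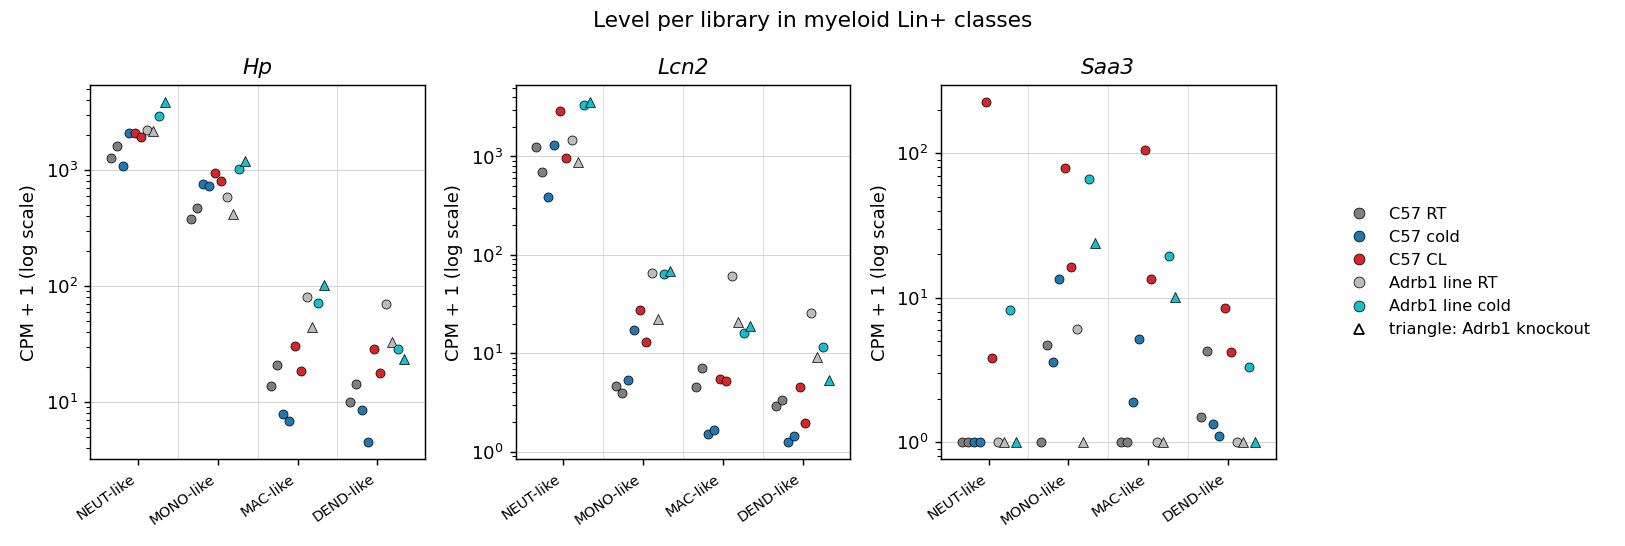
Levels of Hp, Lcn2 and Saa3 in CPM + 1 (log scale) in myeloid Lin+ classes, 1 point per library, colored by treatment and line. Hp in MONO-like cells is at 377 to 587 CPM in the 4 RT libraries and at 731 to 1195 CPM in the 6 treated libraries.

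The genes most like each member were ranked by Pearson's r over 60 class sums, from 6 Lin- classes in 10 libraries, among 9719 genes. The sums of a library share its depth and kit, so r is a description. Saa3 was most like Lcn2 (r = 0.84), Hp (0.81), Serp1 (0.75), Mrpl54 (0.74) and Glrx3 (0.74). Hp was most like Adipoq (0.91), Lcn2 (0.87), Adig (0.81), Saa3 (0.81) and Mrap (0.78). Lcn2 was most like Hp (0.87), Saa3 (0.84), Adipoq (0.76), Prelid1 (0.75) and Nhp2 (0.72).

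Serpina3n and Steap4 had other neighbors. The genes most like Serpina3n were Plac8 (r = 0.88), Cxcl13 (0.85), Ccl8 (0.85), Prrx2 (0.85) and Fkbp11 (0.84). Those most like Steap4 were Cygb (0.89), Pdgfrb (0.89), Vtn (0.88), Adcyap1r1 (0.87) and Ndufa4l2 (0.87). The r between Saa3 and Serpina3n was 0.67 and that between Saa3 and Steap4 0.28.

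Other acute-phase genes were counted from a list of 29, of which 15 could be tested in ASC1-like cells. After cold in C57 mice 4 were higher and 1 lower, where 19.1% of all genes were called. Ptx3, a pattern recognition protein of the pentraxin family, had a log2 fold change of 3.48 ± 0.57 (edgeR, adjusted p = 0.00214) and went from 18.5 and 4.94 CPM to 168 and 137 CPM. The metallothionein gene Mt2 (1.59 ± 0.48), the complement gene C4b (1.25 ± 0.38) and Saa1 (1.89 ± 0.54) rose as well, and Cd14 fell. The call of Mt2 was lost with the replicate number as a block (edgeR, adjusted p = 0.0763). After CL, Ptx3 (2.59 ± 0.57) and Saa1 (2.49 ± 0.57) rose, with a background of 2.23%. With the block 5 of the 15 were called after CL, Orm1, C4b and Lrg1 being added, and 459 genes in all against 285. The median log2 fold change of the list was 0.95 after cold in C57 mice, against 0.02 over all genes. It was 1.29 after CL, against 0.008, and 0.245 after cold in the Adrb1 line, against 0.04. After cold in the Adrb1 line 6 rose, among them Mt2 (4.00 ± 0.53), Ptx3 (3.96 ± 0.63) and Cfb (2.60 ± 0.95), and 1, Lbp, fell, where 20.4% of all genes were higher and 20.1% lower.

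In ASC2-like cells 13 of these genes could be tested. C4b (2.75 ± 0.29) and Cp, which encodes the copper-binding ferroxidase ceruloplasmin (1.52 ± 0.19), rose after cold in C57 mice, where 1.29% of genes were called, and C4b (2.33 ± 0.28) rose after CL, where 0.252% were. C4b stood at 58.4 and 84.2 CPM at RT and 437 and 454 CPM after cold. In ASC3-like cells none of 13 was called in C57 mice, with backgrounds of 0.277% after cold and 0.0448% after CL, and 1041 and 1000 of 11172 genes at an unadjusted p under 0.05. With the replicate number as a block Cfb was added in ASC2-like cells after cold and Lrg1 in ASC3-like cells after CL. All genes called then numbered 246 after cold and 99 after CL in ASC2-like cells, against 143 and 28, and 101 and 66 in ASC3-like cells, against 31 and 5. Of 13 tested in the Adrb1 line 5 rose and 1, Ptx3, fell in ASC2-like cells, where 18.4% of genes were higher and 17.5% lower. In ASC3-like cells Lrg1, Cfb (2.61 ± 0.47) and Mt2 (1.65 ± 0.46) rose and none fell, where 13.9% of genes were higher and 14% lower. With the genotype as a block Saa1 and Ptx3 were added there among the higher genes.

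Of the genes that signal upstream of the acute-phase response, Il6 moved most in ASC1-like cells. Il6 went from 14.7 and 19.3 CPM at C57 RT to 124 and 85.5 CPM after cold (edgeR, log2 fold change 2.76 ± 0.37, adjusted p = 0.000711) and 83.1 and 41.4 CPM after CL (edgeR, 2.00 ± 0.38, adjusted p = 0.0210). The Adrb1 line went from 7.59 and 13.3 CPM to 140 and 65.3 CPM (edgeR, 3.41 ± 0.46, adjusted p = 0.000271). Of the 24 genes of this list tested in ASC1-like cells, 2 rose (Il6 and the NF-κB inhibitor gene Nfkbia) and 2 fell (Lifr and the glucocorticoid receptor gene Nr3c1) after cold in C57 mice, 1 rose after CL, and 5 rose and 3 fell in the Adrb1 line. Of all genes in this class, 19.1% were called after cold in C57 mice and 2.23% after CL, and in the Adrb1 line 20.4% were higher and 20.1% lower. The median log2 fold change of the list was 0.21 after cold in C57 mice, 0.14 after CL and 0.02 in the Adrb1 line. With the replicate number as a block, Bcl3 was added among the higher genes in ASC1-like cells after cold in C57 mice. In ASC2-like and ASC3-like cells no gene of this list was called in C57 mice (with the replicate number as a block, Osmr was in ASC2-like cells after cold). In the Adrb1 line 4 rose and 4 fell in ASC2-like cells, where 18.4% of genes were higher and 17.5% lower, and 2 fell in ASC3-like cells, where 14% were lower. With the genotype as a block the call of Myd88 was lost in ASC2-like cells. In ASC3-like cells that block added Bcl3 (higher) and Nfkbiz (lower).

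Related genes of the same families were counted as well, in ASC1-like cells, where the shares of all genes called were again 19.1% after cold and 2.23% after CL in C57 mice and 20.4% higher and 20.1% lower in the Adrb1 line. Of 9 tested in ASC1-like cells after cold in C57 mice, Serpina3g (5.52 ± 1.16), Steap1 (2.78 ± 0.65), Serpina3f (1.89 ± 0.46) and Saa1 rose and Steap2 fell. After CL Saa1 rose, and in the Adrb1 line 5 rose and 1, Steap3, fell. Receptors and binding partners of the 5 proteins gave 0 higher and 2 lower of 5 after cold in C57 mice, Scarb1 (-1.62 ± 0.39) and Slc22a17, which encodes a receptor of lipocalin-2 (-0.76 ± 0.20), and none after CL. After cold in the Adrb1 line Hmox1, whose product degrades haem (1.91 ± 0.23), rose and Tlr4 (-1.05 ± 0.21) fell. Of 8 genes of iron and copper handling, the iron exporter gene Slc40a1 (1.66 ± 0.37) and Slc11a2 (0.79 ± 0.21) rose after cold in C57 mice, none was called after CL, and 3 rose and 1 fell in the Adrb1 line. With the replicate number as a block, Serpina3g and Steap1 were added among the relatives, Scarb1 among the partners and Slc40a1 among the iron genes after CL. After cold in C57 mice the block added Tfrc (higher) among the iron genes. In the Adrb1 line the genotype as a block added Serpina3i and Steap2 (both higher) among the relatives.

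In MAC-like cells of C57 mice after cold the acute-phase list of 12 tested genes gave 2 higher and 5 lower, and the upstream list of 23 gave 2 higher and 14 lower, with Il1b (-2.57 ± 0.44) and Tnf (-1.79 ± 0.26) among the latter, where 39.1% of all genes were called. The neutrophil marker sum of these cells went from 774 and 682 CPM to 45.2 and 48.2 CPM, and most of them came from a different cluster after cold than at RT, as given above. The part of either in these list counts was not tested. The iron list gave 2 higher and 2 lower of 8. The ferritin genes Fth1 (2.03 ± 0.27) and Ftl1 (1.65 ± 0.24) rose and Slc40a1 (-0.93 ± 0.28) fell. Fth1 (2.37 ± 0.27) and Ftl1 (2.49 ± 0.25) rose in the Adrb1 line as well, where 54.4% of genes were called. For cold in C57 mice, the replicate number as a block added Cfb (higher) and Lrg1 (lower) to the acute-phase calls. It also added Tfrc (lower) to the iron calls, and the call of Nfkbia was lost.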

How the data were processed

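Libraries were made with droplet single-cell kits from Lin- and Lin+ stromal vascular cells. The authors deposited expected counts per gene and cell: UMI counts from Cell Ranger 3.0.1 on mm10, corrected for cell-free RNA with SoupX across all cells of a library, so values need not be whole. By the study's methods, Fabp4 and Car3 were taken as not expressed to set this correction. The correction can lower true counts of abundant genes or leave background, which is why endothelial cells were compared. From these values, cells were filtered on UMIs, genes and mitochondrial share, aligned over 6 cohorts and clustered (scanpy 1.11.5, leidenalg 0.10.2, 2000 variable genes, 30 components, resolution 1), leaving out the 5 genes, all listed genes and all markers. Doublets were scored with Scrublet, and leaving out the top 6% was an alternative. Counts were summed per class and library, rounded, and fitted with edgeR 4.0.16 (R 4.3.3; TMM, filterByExpr, quasi-likelihood test, Benjamini-Hochberg adjustment, threshold 0.05), with DESeq2 1.42.0 as an alternative. All 10 libraries of a fraction entered each fit. The steps were tested on simulated data. Intervals are exact, at 95%. The SE of a log2 fold change is its absolute value divided by the square root of the F statistic of the quasi-likelihood test. It is therefore tied to that test and not estimated apart from it. A sum of 0 was set to a floor of 3 counts. The study describes the C57 replicates as separate cohorts of mice.

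The members and the gene lists were chosen with earlier results of these data known. Named genes were the 5 members, up to 4 called genes per list with the largest change, and the 5 genes most like each member. By the study's methods, C57 libraries with the same number came from 1 replicate experiment, which pairs them. Their deviations from the group means correlated at 0.05 to 0.22 between RT and COLD and at -0.07 to 0.09 between RT and CL. In the Adrb1 line, where RT and COLD were collected on different days, the block was the genotype (-0.02 to 0.16). Alternatives were the count filter, DESeq2, a replicate block, fits within a line, cell filters, thinning and leaving out each library. Leaving out shared barcodes of CL replicate 2, a wider ASC2-like class and VEC-like cells without the low-depth cluster were chosen after seeing the data.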

Additional observations from a re-analysis of the deposited data

Results flagged for a closer look

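The cold response of Serpina3n in the Adrb1 line stood out because it differed between classes of the same libraries. The term for ASC2-like minus ASC1-like cells was -1.42 on the log2 scale (edgeR, SE 0.37, adjusted p = 0.0223), from 8.67 and 6.23 CPM at RT to 83.2 and 39.9 CPM after cold in ASC1-like cells, and from 31.7 and 10.98 CPM to 82.0 and 50.9 CPM in ASC2-like cells. The call was lost without the WT RT library (-0.68) or without the WT COLD library (-1.22), and the classes lay closer in the KO pool, the second value of each pair. The RT libraries were made with another kit version than the COLD libraries, and the part of the kit in this Serpina3n term was not tested.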

How the results depend on the processing

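The tests of the members rest on 2 pools a group, and sums near 0 at RT leave fold changes of Saa3, Hp and Lcn2 with wide errors. Across alternatives, 290 of 330 values of the Adrb1 line in Lin- cells kept their direction and side of the threshold, as did 318 of 391 in Lin+ cells. The cause of the changes below was not tested. The share of all genes called in the same alternative fit is not given beside the counts of members below. Those counts show how calls moved between fits and are no result about the members.

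Without a filter on low counts, the number of members called in the Adrb1 line went from 2 to 4 in ASC3-like, from 0 to 4 in VEC-like, from 1 to 4 in VSMC-like, from 0 to 2 in Schwann-like, from 2 to 4 in MAC-like, from 0 to 2 in DEND-like and from 2 to 1 in NEUT-like cells. In C57 mice it went from 2 to 4 in MAC-like and 0 to 3 in DEND-like cells after cold, and from 0 to 2 in NEUT-like cells after CL. For the class by cold term it went from 1 to 2 for ASC2-like and 0 to 1 for ASC3-like cells. With DESeq2 it was 4 in ASC3-like cells of the Adrb1 line and 1 in DEND-like cells after cold in C57 mice. Within the C57 line alone it was 0 in MONO-like cells after cold and after CL. Without the cells of the highest doublet scores it was 1 in VEC-like, 0 in VSMC-like and 1 in MAC-like cells of the Adrb1 line, and in C57 mice 0 in MAC-like, 0 in MONO-like and 2 in DEND-like cells after cold and 1 in MONO-like cells after CL. Without cells with an adipocyte gene it was 1 in VEC-like and 0 in VSMC-like cells, and without the low-depth cluster 1 in VEC-like cells.

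The replicate number pairs the C57 libraries, and in the Adrb1 line the block was the genotype. With the replicate block the number of members called was 4 in ASC3-like, 3 in VSMC-like and 1 in DEND-like cells of the Adrb1 line, 0 in MONO-like and 2 in DEND-like cells after cold in C57 mice, and 1 in NEUT-like cells after CL. The block changed no other call of a member in C57 mice.

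Leaving out 1 library at a time gave 0 to 1 members called in VSMC-like, 1 in MAC-like, 0 to 1 in DEND-like and 1 to 2 in NEUT-like cells of the Adrb1 line. In C57 mice it gave 1 to 2 in MAC-like and 0 in MONO-like cells after cold, and 0 to 1 in MAC-like, 0 to 3 in MONO-like and 0 to 3 in NEUT-like cells after CL. For the class by cold term it gave 0 to 1 for ASC2-like and 0 to 1 for ASC3-like cells.

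Directions turned for values that had not passed. With the replicate block, Lcn2 in NEUT-like cells after cold in C57 mice was 0.047 on the log2 scale. After thinning, the Serpina3n term of VEC-like cells was -0.049. Without the cells of the highest doublet scores Steap4 in VEC-like cells of the Adrb1 line was 0.53, and Lcn2 in MAC-like cells was 0.51 after CL and 0.30 in the Adrb1 line. The values below are ranges over leaving out 1 library at a time. For Steap4 in the Adrb1 line they were -0.019 to 0.28 in ASC3-like, -0.098 to 1.19 in VSMC-like and -0.076 to 0.85 in NEUT-like cells, and for Steap4 in MAC-like cells of C57 mice -3.16 to 0.33 after cold and -1.02 to 2.47 after CL. For Lcn2 they were -0.47 to 0.27 in MAC-like and -1.12 to 0.34 in DEND-like cells after CL, -1.41 to 0.16 and -1.72 to 0.23 in these classes of the Adrb1 line, and -1.81 to 0.38 in NEUT-like cells after cold in C57 mice. For Hp in NEUT-like cells after cold in C57 mice they were -0.81 to 0.54, and for the Serpina3n term of VEC-like cells -0.41 to 5.08. The libraries that turned them were WT RT for Steap4 in ASC3-like and VSMC-like cells, Lcn2 in the Adrb1 line and the Serpina3n term (also WT COLD), KO COLD for Steap4 in NEUT-like cells, RT replicate 1 for Steap4 in MAC-like cells, RT replicate 2 and CL replicate 2 for Lcn2 after CL in MAC-like and DEND-like cells, and RT replicate 1 with COLD replicate 2 (Hp) or COLD replicate 1 (Lcn2) in NEUT-like cells.

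Counts of all genes called moved as well. After CL in ASC1-like cells 285 genes became 903 without the filter, and after cold 2435 became 1559 within the line. In the Adrb1 line 3986 became 2414 in ASC2-like, 3114 became 1500 in ASC3-like and 1507 became 594 in VEC-like cells with DESeq2.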
